A study of Homo sapiens with 25 samples.

Results

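Histone genes, 53 of the 19775 genes measured, are described here in 3 human cell lines exposed to erlotinib, an inhibitor of the EGFR kinase. The set holds every gene named as a core or linker histone by its current symbol that had a probe set annotated to it alone: 43 replication-dependent genes and 10 replacement variant genes. Where a gene had several such probe sets, the one with the highest mean over the 25 arrays represented it. Affymetrix arrays gave 1 log2 value per probe set and array. BT20, a basal breast cancer line with high EGFR, received erlotinib at 10 µM and was sampled at 0 min (4 arrays), 30 min, 6 h and 24 h (3 arrays each). MDA-MB-453, a breast cancer line with high ERBB2, was sampled at 24 h and at 0 min of the same treatment (3 arrays each), and so was a line labelled only MCF (3 arrays each). The cells had adhered for 24 h in medium with 10% serum before the drug was added. There was no culture kept for 24 h without drug, so effects of the drug and of time in culture cannot be told apart. The labels do not say whether replicates were separate cultures, so the p-values measure only the spread between these samples, which may be technical.

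Histones package DNA. An octamer of H2A, H2B, H3 and H4 forms the nucleosome core, and H1 binds the linker DNA between cores. Most replication-dependent histone genes lie in clusters, lack introns and are normally transcribed in S phase under NPAT. Their mRNAs end in a stem-loop bound by SLBP in place of a poly(A) tail. Most variant genes lie alone, are expressed through the cell cycle, and give polyadenylated mRNAs. The classes were assigned by symbol, so H2BC12L, on chromosome 21, counts as replication-dependent. A few replication-dependent genes also yield polyadenylated transcripts, which are known from differentiating and non-dividing cells. The labels state that biotinylated cRNA was prepared by the standard Affymetrix protocol and do not name the primer, so the part of each signal that comes from polyadenylated transcripts is unknown.

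The genes lie close together. Of the 53 histone genes, 40 are on chromosome 6, 25 of them among the 36 tested. The promoter windows below are shown because they belong to genes that the results turn on. The H2AC6 window is the whole 245 bases between H2AC6 and H2BC4, which are transcribed away from each other, and the H2BC17 window is the whole 239 bases between H2BC17 and H2AC17. H2BC12, which did not pass the test, is shown for contrast. The bases are those before each RefSeq start in GRCh38.p14, 5′ to 3′ on the gene's strand, ending where a neighbouring gene begins. Capitals mark an octamer (ATTTGCAT or its complement ATGCAAAT), a CCAAT box (CCAAT or ATTGG) and a TATA box (TATAAA or TTTATA), searched on both strands. Runs such as TTTATAAA hold the TATA letters of both strands in overlap.
H2AC6 promoter, chr6:26123927-26124171, plus strand: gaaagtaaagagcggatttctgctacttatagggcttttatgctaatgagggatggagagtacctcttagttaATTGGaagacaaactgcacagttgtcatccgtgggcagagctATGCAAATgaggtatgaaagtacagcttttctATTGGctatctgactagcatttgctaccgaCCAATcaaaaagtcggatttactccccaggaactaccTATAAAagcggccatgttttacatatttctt
H2BC17 promoter, chr6:27893186-27893424, plus strand: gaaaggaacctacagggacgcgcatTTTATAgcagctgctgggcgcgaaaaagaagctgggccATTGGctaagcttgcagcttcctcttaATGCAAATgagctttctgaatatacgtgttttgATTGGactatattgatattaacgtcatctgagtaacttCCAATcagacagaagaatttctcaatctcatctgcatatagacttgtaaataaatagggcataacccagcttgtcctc
H2BC21 promoter, chr1:149886683-149886917, minus strand: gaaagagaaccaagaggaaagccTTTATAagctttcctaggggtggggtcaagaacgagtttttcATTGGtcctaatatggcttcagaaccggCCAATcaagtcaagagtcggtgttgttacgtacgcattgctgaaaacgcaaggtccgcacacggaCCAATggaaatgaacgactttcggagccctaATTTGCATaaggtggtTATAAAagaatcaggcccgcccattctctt
H2AC25 promoter, chr1:228457874-228458102, minus strand: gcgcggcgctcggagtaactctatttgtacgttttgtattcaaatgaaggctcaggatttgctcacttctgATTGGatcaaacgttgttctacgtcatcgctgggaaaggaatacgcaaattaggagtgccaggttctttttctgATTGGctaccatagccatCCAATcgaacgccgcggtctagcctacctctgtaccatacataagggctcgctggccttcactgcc
H2AJ promoter, chr12:14774155-14774404, plus strand: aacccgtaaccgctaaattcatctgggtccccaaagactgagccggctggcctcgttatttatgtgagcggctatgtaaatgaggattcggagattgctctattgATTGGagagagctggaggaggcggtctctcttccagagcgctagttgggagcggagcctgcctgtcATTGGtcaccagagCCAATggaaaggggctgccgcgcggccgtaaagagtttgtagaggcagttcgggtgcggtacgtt
H2BC12 promoter, chr6:27146859-27147105, minus strand: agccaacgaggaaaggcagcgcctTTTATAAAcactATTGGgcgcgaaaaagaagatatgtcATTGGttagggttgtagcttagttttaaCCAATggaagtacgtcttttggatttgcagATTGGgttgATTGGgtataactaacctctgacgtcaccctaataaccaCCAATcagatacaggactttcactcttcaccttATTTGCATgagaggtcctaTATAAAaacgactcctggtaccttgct

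In windows of 250 bases before the start, the octamer was found in 32.0% of the 50 histone genes matched to RefSeq promoters by symbol, against 1.66% of all 27305 promoters. A CCAAT box was found in 84.0% of histone windows, against 33.0% of all promoters, and a TATA box in 60.0%, against 11.1%. The octamer was present in 6 of 8 replication-dependent H2A windows and 10 of 13 H2B windows, and in 0 of 6 H1, 0 of 6 H3 and 0 of 7 H4 windows. It was found in 5 of 10 replication-dependent genes called higher in BT20 at 24 h and in 9 of 17 tested and not called. In all these counts an octamer between divergent genes is counted for both, as for H2AC6 with H2BC4 and H2BC17 with H2AC17. The H2AC6, H2BC17, H2BC21 and H2BC12 windows hold 1 octamer each, and those of H2AC25 and H2AJ hold none. A match to these letters is a description of the sequence and not evidence of binding.

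A gene was tested when its log2 value exceeded 4 on at least 3 arrays. This kept 36 histone genes, 28 replication-dependent and 8 variants, among 12643 genes in all. Of the 36, 23 exceeded 4 on all 25 arrays. The 17 others were H1-4, H1-6, H1-7, H1-8, H2BC1, H2BC3, H2BC13, H2BC15, H3C1, H3C2, H3C7, H3C11, H4C1, H4C4, H4C7, H4C9 and H4C13. A gene with low values can pass such a filter only through the arrays where it is high, so counts over the tested genes are descriptions. H2AC15 passed on 3 arrays, all of MCF at 24 h, and H3C3 passed on arrays of MDA-MB-453 and MCF alone. H4C5 passed on 6 arrays and H2AC4 on 5, all of MCF. Histone genes have near-identical copies, and 8 of the 36 probe sets carried the suffix _x and 7 the suffix _s, which Affymetrix gives to sets whose probes can match several transcripts. The signal of a single family member is therefore uncertain wherever a close copy exists. Calls below are limma's moderated test with Benjamini-Hochberg adjustment over the 12643 genes, at an adjusted p under 0.05.

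Marker genes of the lines were read first. EGFR averaged 12.38 in untreated BT20, ERBB2 11.07 in untreated MDA-MB-453 and ESR1 12.47 in untreated MCF on the log2 scale. In BT20 the basal keratin KRT5 averaged 12.37 and KRT14, another basal keratin, 3.89 at 0 min, and the luminal genes GATA3 and ESR1 averaged 11.13 and 8.66. The leukocyte genes PTPRC and CD3E averaged 1.99 and 1.29 there. The fibroblast gene COL1A1 averaged 9.56 in BT20 at 24 h and 9.11 at 0 min, and the endothelial gene PECAM1 averaged 4.61 at 24 h and 3.60 at 0 min, a change of 1.01 that was called (adjusted p = 0.0269). On single arrays PECAM1 ran from 3.08 to 4.9 at 0 min and from 4.59 to 4.64 at 24 h, so the groups overlapped. Its 0 min mean lay below 4, where the size of a difference is inexact. The part of COL1A1 and PECAM1 in the results was not tested. The 75th percentile of all probe sets lay between 7.65 and 7.81 on BT20 and MDA-MB-453 arrays and between 7.27 and 7.32 on MCF arrays, so levels are not compared between MCF and the other lines. Replicate 4 of BT20 at 0 min stood apart. Over all tested genes it correlated at 0.990 to 0.992 with the 6 h arrays and at 0.971 to 0.975 with the other 0 min arrays. Changes at 6 h are therefore also given from a fit with a batch term that joins this array to the 6 h arrays, in which 6 h is measured against replicate 4 alone.

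After 24 h of erlotinib, 12 of the 36 tested histone genes were called higher in BT20 cells and none was called lower. At an unadjusted p under 0.05 there were 13, beside 5169 of all 12643 genes. The added histone gene was H1-10, also higher. The rise reached 2.02 ± 0.10 log2 units (SE), 4.05-fold, in H2AC6. The 12 were 10 replication-dependent genes and 2 variants: H2AC6, H3C6, H2BC17, H2AC25, H2BC21, H2AC17, H2BC5, H2BC4, H3C8 and H2AC15, with MACROH2A2 and H2AJ. They belonged to the H2A family (6 of 14 tested), the H2B family (4 of 10) and the H3 family (2 of 4). Neither of the other families had a called member, with 5 H1 and 3 H4 genes tested. As background, 32.8% of all genes were called in this comparison, 18.9% higher and 13.9% lower, beside 33.3% higher and 0% lower for histone genes. Called or not, the mean was higher at 24 h for 24 histone genes and lower for 12, beside 6716 and 5927 of all 12643 genes. Of the 28 replication-dependent genes, 19 had a higher and 9 a lower mean. The median change was 0.25 over the 28 replication-dependent genes, 0.05 over the 8 variants and 0.03 over all genes tested. Without the filter on low values the first was 0.13, and with the mean of each gene's probe sets the variants' median was 0.14.

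**Figure D1:**
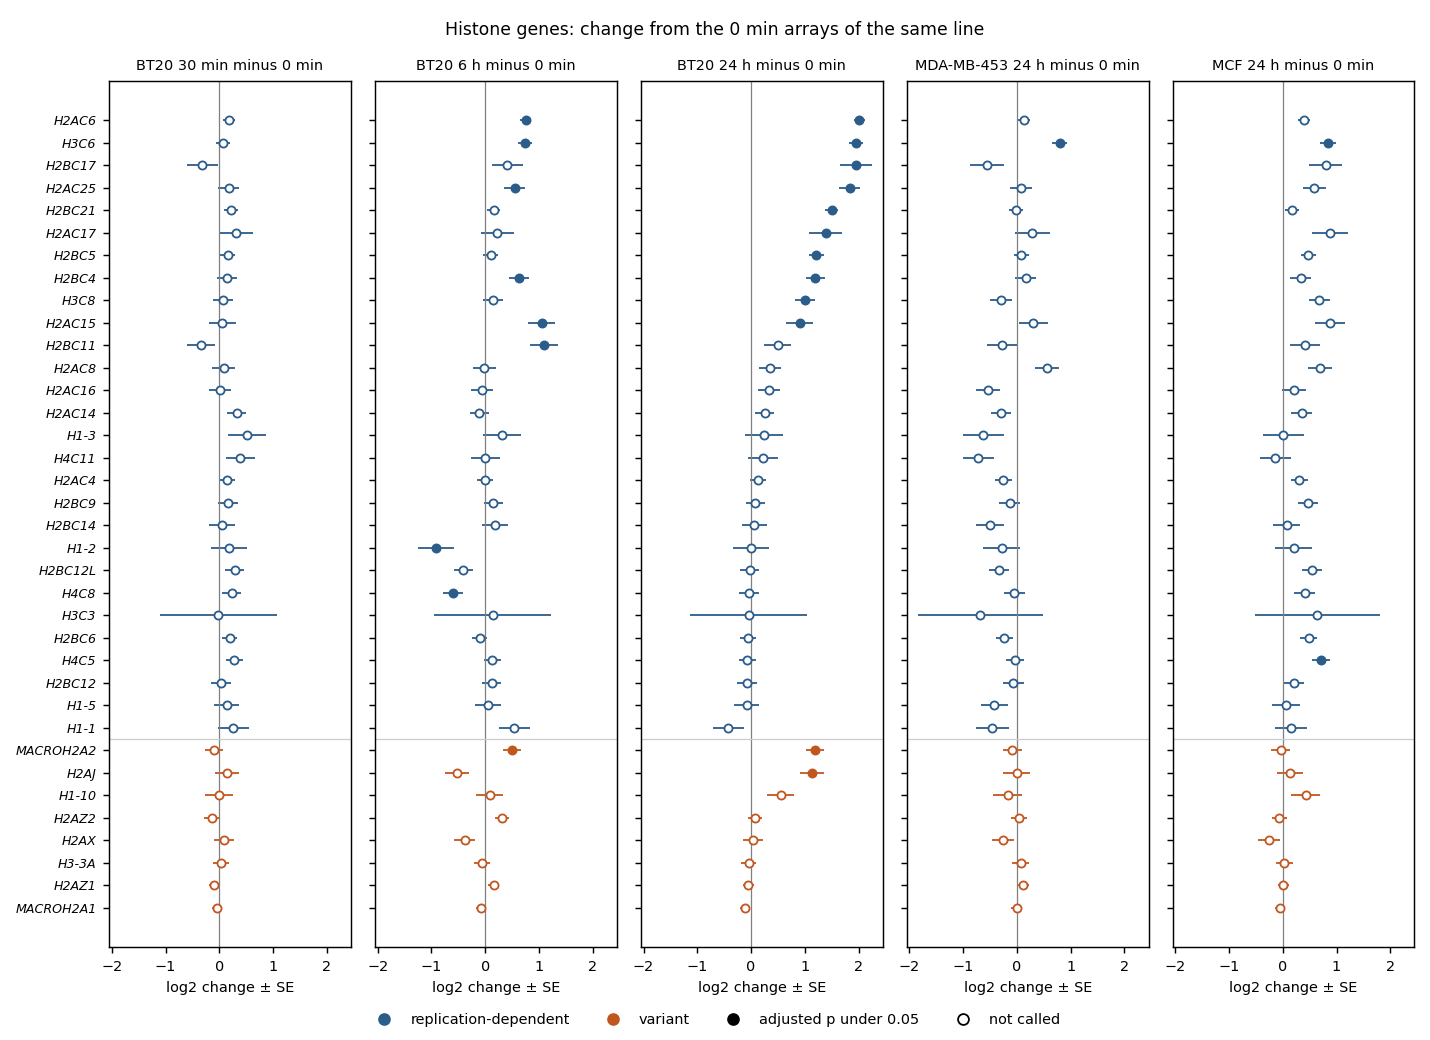
Change in log2 value of the 36 tested histone genes against the 0 min arrays of the same line, with replication-dependent genes in blue and variants in orange, ordered by the change in BT20 at 24 h. Points are fitted changes, bars are standard errors, and filled points had an adjusted p under 0.05. In BT20 at 24 h the 12 filled points all lie to the right of 0, between 0.91 and 2.02, while 30 min has no filled point.

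H2AC6, an H2A gene of the large cluster, had values of 11.28, 11.43 and 11.47 in BT20 at 24 h, against 9.43, 9.48, 9.46 and 9.14 at 0 min. Every 24 h array lay far above every 0 min array, beyond the spread within either group, and the adjusted p was 5.15e-12. H2BC4, the H2B gene on the other side of the H2AC6 promoter window, had 5.15, 5.60 and 5.50 at 24 h, against 4.31, 4.22, 4.22 and 4.11 at 0 min. Both genes of this pair rose, H2BC4 by 1.20 ± 0.18 (adjusted p = 2.57e-05).

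H2BC17 and H2AC17 share the other printed window between divergent genes. H2BC17 had 5.20, 5.42 and 5.49 at 24 h, against 3.40, 3.28, 3.51 and 3.48 at 0 min, a change of 1.95 ± 0.29 (adjusted p = 2.11e-05). Its 0 min values lay below 4, where the size of a difference is inexact. H2AC17 had 6.63, 6.70 and 6.63 at 24 h, against 5.01, 5.36, 5.38 and 5.32 at 0 min, a change of 1.39 ± 0.31 (adjusted p = 0.00152). The genes of the other tested pair of this kind were not called: H2AC14 changed by 0.26 ± 0.18 and H2BC14, 244 bases away, by 0.06 ± 0.24.

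H3C6, an H3 gene, had 5.64, 5.52 and 5.83 at 24 h, against 3.84, 3.54, 3.71 and 3.75 at 0 min. The groups did not overlap, and the fitted change was 1.95 ± 0.13 (adjusted p = 3.24e-10), inexact in size since the 0 min values lay below 4. The mean of its 2 probe sets changed by 0.97 and remained called. That mean includes the set shown, so the other set hardly changed and the rise rests on 1 probe set. H3C8, the other called H3 gene, changed by 1.00 ± 0.18 (adjusted p = 0.000231) with 0 min values below 4.

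H2AC25 and H2BC21 lie in histone clusters on chromosome 1, away from the large cluster. H2AC25 had 11.20, 11.11 and 11.19 at 24 h, against 9.22, 9.20, 9.40 and 9.51 at 0 min, a change of 1.84 ± 0.20 (adjusted p = 2.44e-07). H2BC21 had 12.04, 12.02 and 12.03 at 24 h, against 10.64, 10.67, 10.30 and 10.52 at 0 min. The 3 arrays at 24 h nearly coincided, well above the 0 min arrays, and the change was 1.50 ± 0.13 (adjusted p = 7.44e-09). H2BC5 had 8.91, 8.73 and 8.91 at 24 h, against 7.50, 7.88, 7.69 and 7.48 at 0 min, a change of 1.21 ± 0.13 (adjusted p = 4.43e-07), and its second probe set rose by 0.70 ± 0.17.

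H2AC15 rose by 0.91 ± 0.26 (adjusted p = 0.00872), with all BT20 values below 4. It was the only one of the 12 to lose its call when an array was left out: without replicate 3 at 24 h its change was 0.77 and the adjusted p 0.0571. All 12 genes had 24 h arrays above every 0 min array, as did H1-10, which was not called. The 12 were selected by a test of this difference, and the share of all genes without overlap was not counted. The separation is therefore a description only.

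**Figure D2:**
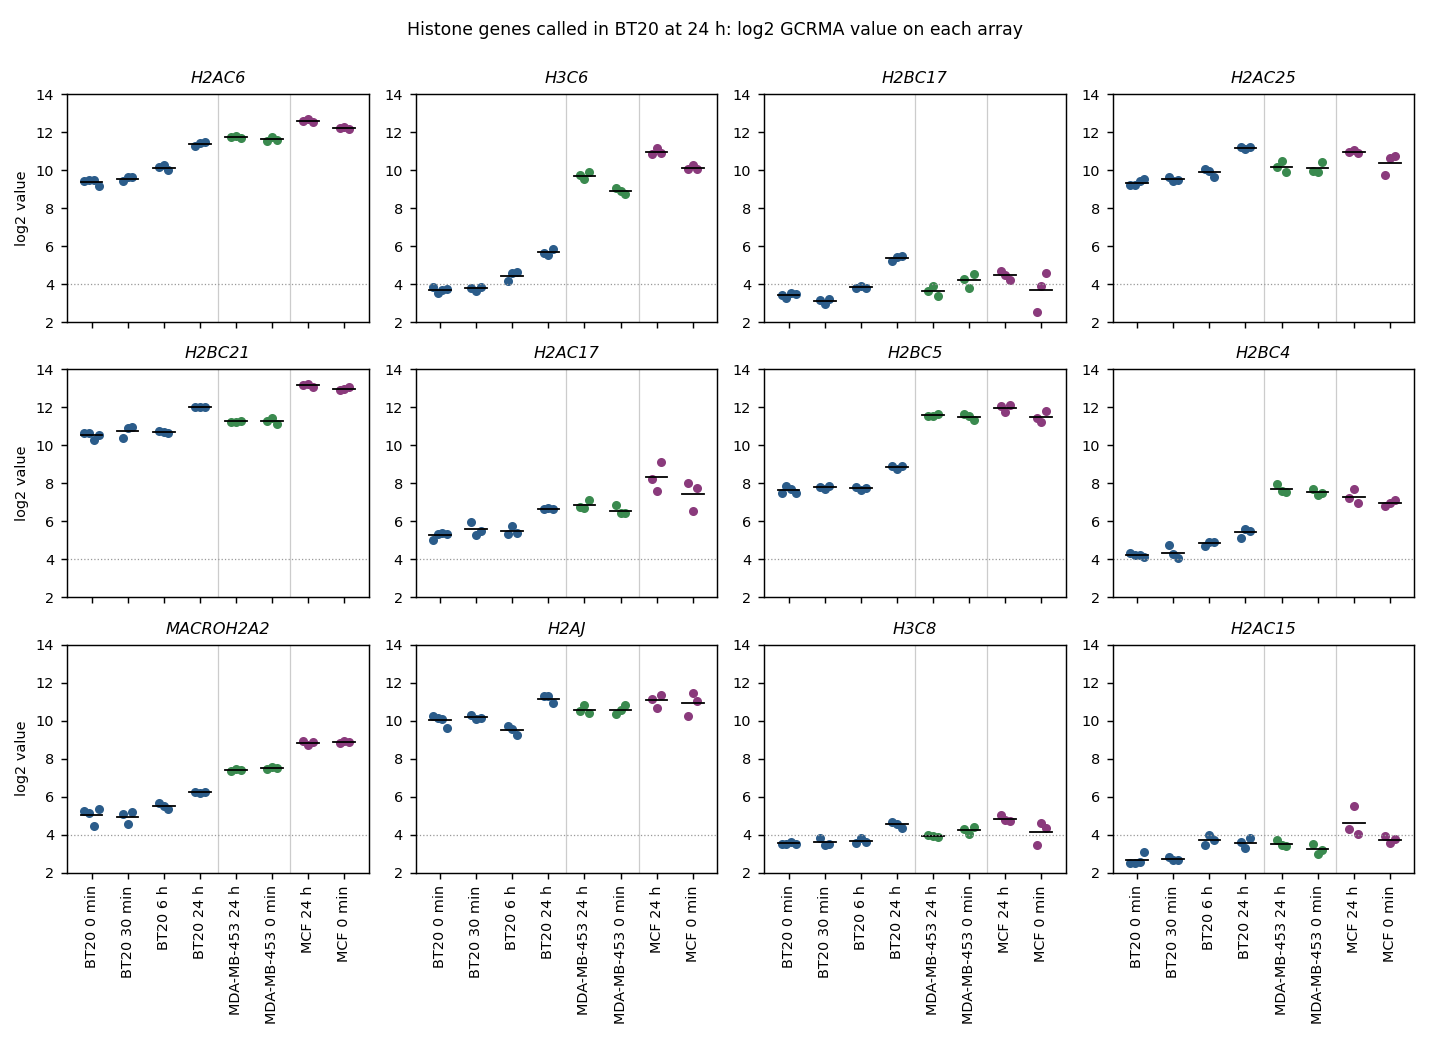
Log2 GCRMA value on every array for the 12 histone genes called in BT20 at 24 h; points are arrays, short bars are group means, and the dotted line marks 4, the level used for testing. In each of the 12 panels the 3 BT20 arrays at 24 h lie above the 4 BT20 arrays at 0 min.

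The 8 tested variants divided into 2 that rose and 6 that were not called. MACROH2A2, which encodes an H2A variant with a large globular macrodomain associated with silent chromatin, had 6.22, 6.22 and 6.26 in BT20 at 24 h, against 5.23, 5.12, 4.45 and 5.34 at 0 min. The groups did not overlap, and the change was 1.19 ± 0.17 (adjusted p = 9.17e-06). H2AJ, an H2A variant, had 11.29, 11.28 and 10.91 at 24 h, against 10.25, 10.15, 10.07 and 9.63 at 0 min, a change of 1.13 ± 0.23 (adjusted p = 0.000554). All 4 probe sets of H2AJ rose, by 1.13 to 2.05.

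MACROH2A1, the paralog of MACROH2A2, had 12.44, 12.43 and 12.35 at 24 h, against 12.66, 12.53, 12.48 and 12.42 at 0 min. Its change of -0.12 ± 0.09 was not called, while 1 of its other probe sets fell by 0.50 ± 0.10 (adjusted p = 0.000701 in the fit to every probe set). H2AZ1, an H2A variant found at promoters, had 12.95, 12.87 and 12.79 at 24 h, against 12.86, 12.83, 13.01 and 12.98 at 0 min. The paralog H2AZ2 had 11.21, 11.38 and 11.29 at 24 h, against 11.30, 11.13, 11.41 and 11.05 at 0 min, and 1 of its 4 probe sets rose by 0.52 ± 0.20 (adjusted p = 0.0495). For the probe sets that represent the 2 genes, the 24 h and 0 min arrays overlapped and neither change was called.

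H2AX, whose protein is phosphorylated at DNA breaks, had 11.85, 11.90 and 11.79 at 24 h, against 11.90, 12.18, 11.67 and 11.48 at 0 min. H3-3A, which encodes the replacement histone H3.3, had 11.66, 11.66 and 11.38 at 24 h, against 11.55, 11.57, 11.43 and 11.90 at 0 min. Neither was called, and their groups overlapped. H1-10, a linker histone, had 10.26, 10.26 and 10.13 at 24 h, against 9.81, 9.74, 9.71 and 9.40 at 0 min. Its groups did not overlap, but the change of 0.55 ± 0.25 was not called (adjusted p = 0.107).

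**Figure D3:**
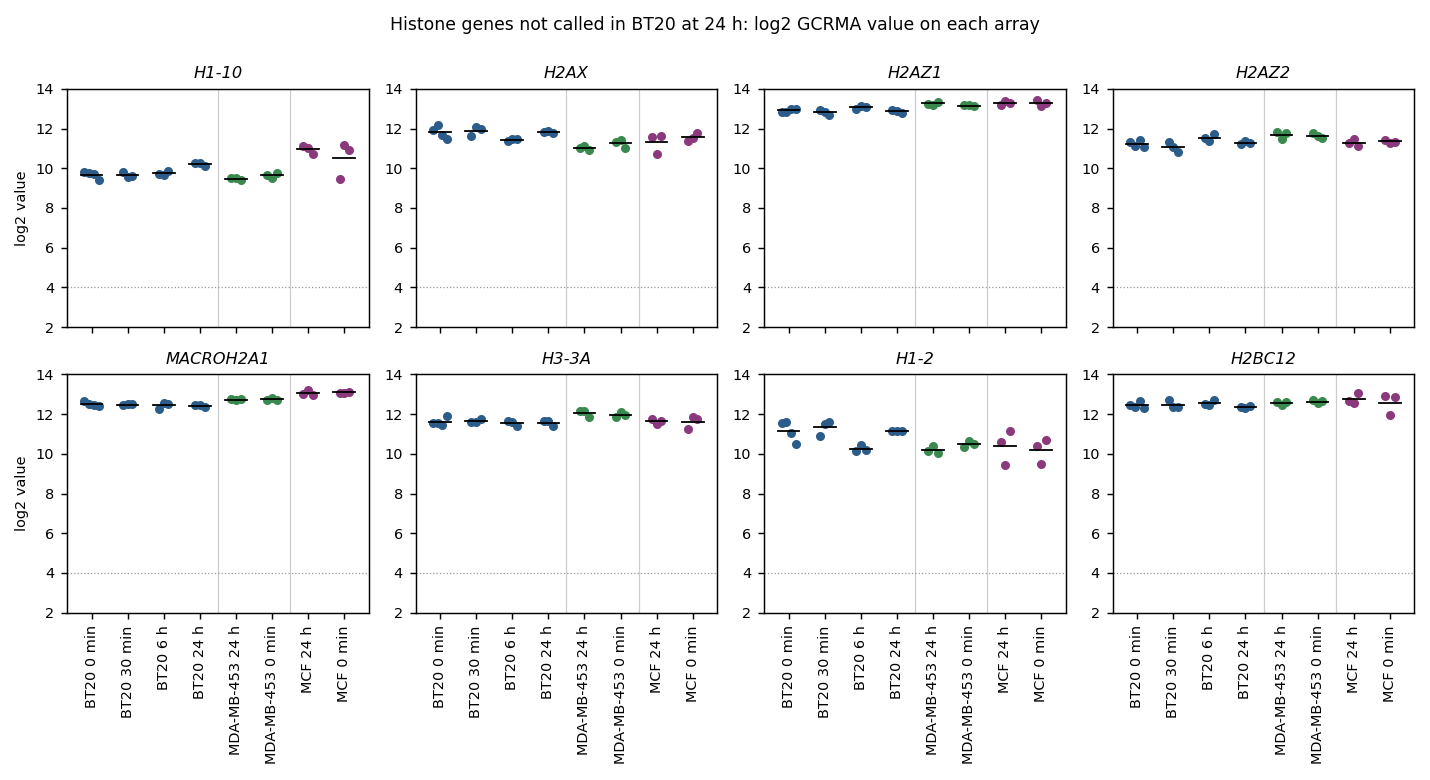
Log2 GCRMA value on every array for 6 variants and for H1-2 and H2BC12, all not called in BT20 at 24 h; points are arrays, short bars are group means, and the dotted line marks 4. The BT20 arrays at 24 h lie within the range of the 0 min arrays for H2AX, H1-2 and H2AZ2, and above it for H1-10.

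Some replication-dependent genes are known to yield polyadenylated mRNA as well. In a list of 6 such genes, H2AC6, H2BC4, H2BC5 and H2BC21 were called higher in BT20 at 24 h, and H1-2 and H2BC12 were not, beside 18.9% of all genes called higher. The median change of the 6 was 1.21, beside 0.25 over the replication-dependent genes tested. H1-2 had 11.16 on each of the 3 arrays at 24 h, within the spread of 11.53, 11.61, 11.05 and 10.47 at 0 min. H2BC12 had 12.36, 12.32 and 12.40 at 24 h, against 12.45, 12.35, 12.66 and 12.30 at 0 min, a change of -0.08 ± 0.18. Gene length in RefSeq is long where a downstream polyadenylated end is annotated. A division by this length was made after the values were seen, so it is a description only, and it differs from the list. H2AC6 (519 bases) and H1-2 (731 bases) of the list fall among the shorter genes. H3C6 (3296 bases), which is not in the list, falls among the longer ones. Of 5 replication-dependent genes over 1000 bases, 4 rose (H2BC4, H2BC5, H2BC21 and H3C6, but not H2BC12), and of 23 shorter ones 6 rose, beside 18.9% of all genes.

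Probe sets annotated to several histone genes were read as well. Of 24 such sets tested, 3 rose in BT20 at 24 h and none fell, beside 15.8% of all probe sets called higher, so the count lay near that share. The 24 include sets shared by the variants H3-3A and H3-3B, none of which was called. A set shared by 10 H3 genes had 10.77, 10.73 and 10.79 at 24 h, against 8.46, 8.29, 8.39 and 8.32 at 0 min. Its rise of 2.40 ± 0.10 (adjusted p = 4.54e-13) was larger than that of any probe set annotated to 1 histone gene. A set shared by 6 H2A genes rose by 1.89 ± 0.16, and 1 set shared by 14 H4 genes rose by 1.06 ± 0.25 (adjusted p = 0.00225). The 0 min values of this H4 set lay below 4, so the size of its rise is inexact. Another set for the same 14 H4 genes had a change of -0.80 ± 0.33 and was not called. Its 0 min values were 5.68, 5.80, 5.89 and 7.22, the highest being replicate 4. The remaining set for these genes was not called either. It had 3.77, 4.03 and 3.67 at 24 h, against 3.66, 3.73, 4.02 and 3.66 at 0 min. The sets for these H4 genes thus did not change alike. In MCF at 24 h, 3 of the 24 shared sets rose and none fell, beside 0.887% of all probe sets called higher, and the H3 set changed by 0.85 ± 0.11 (adjusted p = 0.000152). In MDA-MB-453 none was called, and the H3 set changed by -0.01 ± 0.11.

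At 30 min, none of the 36 histone genes was called in BT20. None had an unadjusted p under 0.05, beside 337 of all 12643 genes. As background, 0.0158% of all genes were called, 0% higher and 0.0158% lower. The mean was higher at 30 min for 28 of 36 histone genes, with a median change of 0.14, and for 5836 of all 12643 genes. The median of the replication-dependent genes was 0.16, and 0.0514 without 30 min replicate 1. The 30 min arrays of H2AC6, at 9.40, 9.65 and 9.62, overlapped the 0 min arrays.

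At 6 h, 7 histone genes were called higher and 2 lower in BT20. As background, 38.2% of all genes were called, 21.6% higher and 16.6% lower, beside 19.4% higher and 5.56% lower for histone genes. Higher were H2BC11 (1.10 ± 0.26), H2AC15 (1.05 ± 0.26), H2AC6 (0.75 ± 0.10), H3C6 (0.74 ± 0.13), H2BC4 (0.63 ± 0.18), H2AC25 (0.55 ± 0.20) and MACROH2A2 (0.49 ± 0.17). Lower were H1-2 (-0.92 ± 0.33), a linker histone, and H4C8 (-0.60 ± 0.18).

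Most of these calls moved with replicate 4 of the 0 min group. H1-2 had 10.13, 10.44 and 10.17 at 6 h, against 11.53, 11.61, 11.05 and 10.47 at 0 min, with replicate 4 the lowest of the 0 min arrays. H4C8 had 7.44, 7.33 and 7.24 at 6 h, against 7.92, 7.94, 8.51 and 7.39, with replicate 4 again nearest to the 6 h arrays. Against replicate 4 in the fit with the batch term, H1-2 changed by -0.22 and H4C8 by -0.06. H2BC11 had 6.29, 6.35 and 5.79 at 6 h, against 4.91, 4.75, 4.95 and 5.56 at 0 min, and changed by 0.59 ± 0.37 with the batch term.

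H2AC6 was the 1 histone gene of 36 still called at 6 h with the batch term, beside 2.31% of all genes. It had 10.14, 10.25 and 10.00 at 6 h, above all 4 arrays at 0 min, and changed by 0.99 ± 0.14 against replicate 4 (adjusted p = 0.000189). That value rests on a single 0 min array, assumed to vary like the other groups, and replicate 4 at 9.14 was the lowest of the 4. Against replicates 1 to 3 the change was 0.67. H3C6 had 4.15, 4.56 and 4.64 at 6 h, against 3.84, 3.54, 3.71 and 3.75 at 0 min, and kept a change of 0.70 ± 0.20 (adjusted p = 0.0816). The other changes with the batch term were 0.64 ± 0.37 in H2AC15, 0.74 ± 0.28 in H2BC4, 0.37 ± 0.29 in H2AC25 and 0.19 ± 0.24 in MACROH2A2. All 12 calls at 24 h stood with the same term, beside 36.7% of all genes called.

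In MDA-MB-453 after 24 h, 1 histone gene was called higher and none lower, while 5.77% of all genes were called, 4.22% higher and 1.55% lower. An unadjusted p under 0.05 was found for 4 histone genes, beside 2057 of all 12643 genes. The called gene, H3C6, had 9.71, 9.53 and 9.87 at 24 h, against 9.05, 8.92 and 8.75 at 0 min. Its change was 0.80 ± 0.14 (adjusted p = 0.00101), or 0.49 with the mean of its 2 probe sets. Over all 12643 genes, 6795 had a higher and 5845 a lower mean at 24 h, with a median change of 0.02. Of the 28 replication-dependent genes, 8 had a higher and 20 a lower mean at 24 h, with a median of -0.24. That median was -0.10 without the filter on low values, -0.0653 with a filter at 6, -0.11 without replicate 3 at 24 h and -0.112 without replicate 3 at 0 min. H2AC6 had 11.76, 11.81 and 11.69 at 24 h, against 11.52, 11.74 and 11.59 at 0 min, and MACROH2A2 had 7.37, 7.47 and 7.43 at 24 h, against 7.46, 7.55 and 7.53. Neither was called, and the groups overlapped for both.

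In MCF after 24 h, 2 histone genes were called higher and none lower, while 3.2% of all genes were called, 1.17% higher and 2.02% lower. H3C6 had 10.84, 11.15 and 10.89 at 24 h, against 10.07, 10.25 and 10.04 at 0 min, a change of 0.84 ± 0.14 (adjusted p = 0.00129). H4C5, an H4 gene, had 5.58, 5.64 and 5.45 at 24 h, against 4.67, 5.13 and 4.73 at 0 min, a change of 0.72 ± 0.17 (adjusted p = 0.0221). It had passed the filter on low values through MCF arrays alone. The groups did not overlap for either gene, nor for H2AC6, H2AC8, H2AC15, H2AC25, H3C8 and H4C8, which were not called. The share of all genes without overlap was not counted. H3C6 and H4C5 were selected by a test of this difference, so their separation is a description only. In a fit to the 6 MCF arrays alone neither was called (adjusted p = 0.307 and 0.511), and 1 gene was called in all.

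Small differences ran the same way across the replication-dependent genes in MCF. Of 28, 27 had a higher mean at 24 h, as did 6096 of all 12643 genes. Their median change was 0.41, beside -0.01 over all genes. Of the 28, 14 had an unadjusted p under 0.05, as did 1615 of all 12643 genes. Without the filter on low values the median was 0.21. MCF 0 min replicate 1 was low for several of them. H2AC25 had 10.96, 11.04 and 10.89 at 24 h, against 9.74, 10.63 and 10.75 at 0 min, where the lowest value is replicate 1. Without that array the median change was 0.30, and 1 histone gene was called. H4C5 was no longer called without it (0.63, adjusted p = 0.0838), nor without 0 min replicate 3 (0.66, adjusted p = 0.0891), 24 h replicate 1 (0.70, adjusted p = 0.0735) or 24 h replicate 2 (0.67, adjusted p = 0.0728).

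The 24 h change was then compared between lines in the same fit. It was called larger in BT20 than in MDA-MB-453 for 10 histone genes and smaller for none, while 14.8% of all genes were called in either direction. The differences ran between 1.03 ± 0.27 in H2BC4 and 2.51 ± 0.43 in H2BC17, with H2AC6 at 1.88 ± 0.15 (adjusted p = 1.69e-08) and MACROH2A2 at 1.28 ± 0.24 (adjusted p = 0.000772). H3C6, called in both lines, still differed, with a change larger by 1.15 ± 0.19 in BT20 (adjusted p = 0.00021). With the mean of its 2 probe sets the difference was 0.49 (adjusted p = 0.0268). H2AC17 changed by 1.39 in BT20 and by 0.29 in MDA-MB-453, H2AC15 by 0.91 in BT20 and by 0.31 in MDA-MB-453, and neither difference was called.

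Against MCF, the 24 h change in BT20 was called larger for 8 histone genes and smaller for 1, while 15.4% of all genes were called. H2AC6 differed by 1.63 ± 0.15 (adjusted p = 1.59e-07), H2BC21 by 1.33 ± 0.18, H2AC25 by 1.25 ± 0.29 and MACROH2A2 by 1.23 ± 0.24. H3C6 (1.11 ± 0.19), H2AJ (1.00 ± 0.33), H2BC4 (0.87 ± 0.27) and H2BC5 (0.74 ± 0.20) made up the rest. With the mean of probe sets the differences of H3C6 (0.31, adjusted p = 0.177) and H2AC25 (0.99, adjusted p = 0.227) were not called, and H2AJ lost its call in 13 and H2BC4 in 6 of the 22 alternatives. H4C5 was the 1 gene called with a smaller change in BT20, by -0.78 ± 0.24 (adjusted p = 0.0265). Its BT20 means lay below 4, and it had passed the filter through MCF arrays alone. Between MDA-MB-453 and MCF no histone gene was called, while 2.34% of all genes were. An unadjusted p under 0.05 was found for 9 histone genes, beside 1364 of all 12643 genes. In that comparison all 28 replication-dependent genes had the lower change in MDA-MB-453, as did 5672 of all 12643 genes. The median difference was -0.58 over the 28 and 0.04 over all genes. Since close copies can share signal, the 28 are not separate observations.

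Before the drug, histone gene levels differed widely between BT20 and MDA-MB-453. In BT20, 25 of the 36 were called lower and 2 higher, while 66.7% of all genes were called, 32.6% higher and 34.1% lower in BT20. H3C6 averaged 3.71 ± 0.13 in BT20 and 8.91 ± 0.15 in MDA-MB-453 (SD, n = 4 and 3), a difference of -5.20 ± 0.13 (SE, adjusted p = 1.17e-18). For H3C6, and for H3C3 and H2AC8 below, the BT20 mean lay below 4, so the size of the difference is inexact. H2AC8, an H2A gene, differed by -4.34 ± 0.21, H2BC5 by -3.86 ± 0.13, H2BC4 by -3.31 ± 0.18, MACROH2A2 by -2.48 ± 0.17 and H2AC6 by -2.24 ± 0.10. H3C3, an H3 gene, differed by -6.58 ± 1.09, with BT20 arrays at 1.91 to 2.17 and MDA-MB-453 arrays at 7.97 to 9.77. Higher in BT20 were H1-1, a linker histone, with 4.93, 4.88, 5.82 and 6.08 in BT20, against 3.15, 3.52 and 3.38 in MDA-MB-453, and H2AX, by 0.54 ± 0.19.

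These levels and the 24 h changes in BT20 use the same 0 min arrays, so they are only set side by side. H2BC5 averaged 8.85 in BT20 at 24 h, 7.64 in BT20 at 0 min and 11.50 in untreated MDA-MB-453. H3C6 averaged 5.66, 3.71 and 8.91 in the same groups, and H2BC21 averaged 12.03, 10.53 and 11.28. The 24 h level in BT20 thus lay below that of untreated MDA-MB-453 for H2BC5 and H3C6 and above it for H2BC21.

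Genes that act on histone genes, histone mRNA or histone proteins were counted in the same way at 24 h in BT20. Of 27 tested genes for histone gene transcription, mRNA processing and decay, 1 rose and 9 fell, 3.7% and 33.3% of the list, beside 18.9% and 13.9% of all genes, with a median change of -0.30. LSM11, a subunit of the U7 snRNP that guides cleavage of histone pre-mRNA, fell by 1.36 on the log2 scale (SE 0.14, adjusted p = 1.86e-07). SLBP, which binds the stem-loop, fell by 0.57 (SE 0.10, adjusted p = 0.000101), and ZNF473, another U7-associated processing factor, fell by 0.86 (SE 0.25). CASP8AP2, also known as FLASH, fell by 0.86 (SE 0.31, adjusted p = 0.0365), and TUT7, a terminal uridylyltransferase, rose by 0.42 ± 0.11. NPAT, with a change of -0.17 ± 0.11 (adjusted p = 0.3), was not called.

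Among 30 histone chaperones and importers, 2 rose and 3 fell, 6.67% and 10% of the list, beside 18.9% and 13.9% of all genes. CABIN1, a subunit of the HIRA complex that deposits H3.3, rose by 0.87 ± 0.22. MCM2, a helicase subunit that also binds H3 and H4, fell by 0.73 (SE 0.19), CHAF1B, of the replication-coupled assembly factor CAF-1, fell by 0.47 (SE 0.14), and IPO4, an importin for histones, fell by 1.67 (SE 0.52). ASF1B, a chaperone of H3 and H4, had a change of 0.31 ± 0.15 that was not called (adjusted p = 0.111). CENPA, the centromeric H3 variant, which is outside the set described here, rose by 0.78 ± 0.16.

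Of 29 tested genes of DNA replication and S phase, 18 fell in BT20 at 24 h and none rose, 62.1% and 0% of the list, beside 13.9% and 18.9% of all genes. The median change was -0.57. MCM10 fell by 1.14 (SE 0.14), CDC6 by 1.26 (SE 0.16), DSCC1 by 0.79 (SE 0.10) and GINS3 by 0.65 (SE 0.08); all 4 act in the start or progress of DNA replication. In the same arrays none of the 28 replication-dependent histone genes was called lower. In MCF, 9 of the 29 fell and none rose, beside 2.02% and 1.17% of all genes, MCM10 by 1.00 (SE 0.15, adjusted p = 0.000263), and SLBP fell by 0.39 (SE 0.10, adjusted p = 0.0425). In MDA-MB-453 none of the 29 was called and none had an unadjusted p under 0.05, beside 2057 of all 12643 genes. In the first list NCBP1, a cap-binding protein, fell in that line by 0.62 (SE 0.16). These MCF calls rest on the fit to all arrays, since 1 gene in all was called in MCF alone. The share of cells in S phase was not measured, and in RNA from whole cultures fewer expressing cells and less RNA per cell cannot be told apart.

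**Figure D4:**
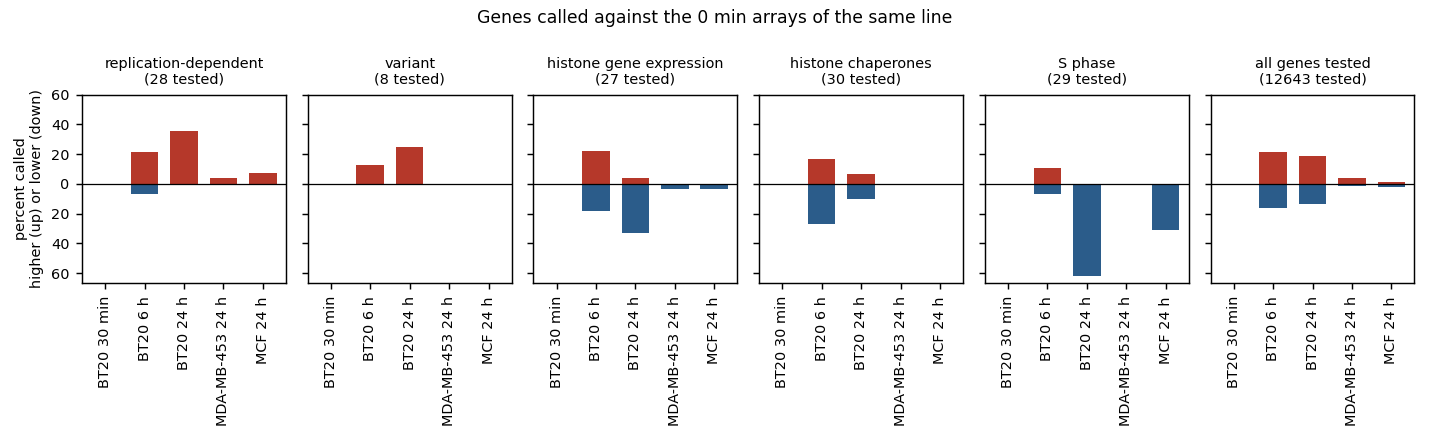
Percent of tested genes called higher (above 0) or lower (below 0) against the 0 min arrays of the same line, for replication-dependent and variant histone genes, 3 accompanying lists and all genes tested. In BT20 at 24 h the replication-dependent histone genes have bars upward only, 10 of 28, and the S phase genes downward only, 18 of 29.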

How the data were processed

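Total RNA of 25 samples was hybridised to Affymetrix arrays. Per the submitters' processing notes, R 2.11.1 and GCRMA 2.20.0 produced the deposited log2 values. GCRMA corrects for sequence-dependent background, normalizes arrays to each other and summarises probes, and which arrays were normalized together is not given in the sources used here. Precision is limited by the number of arrays.

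Probe sets with 1 gene symbol were used, 41091 of 54613, with 1801 carrying several symbols and 11721 none. Histone genes were matched by symbol prefix, and 4 antisense genes or pseudogenes were left out. The 12643 genes that exceeded 4 on 3 or more arrays were fitted with 8 group means in limma 3.58.1 under R 4.3.3, with 17 residual degrees of freedom. The model was tested on simulated data. An adjusted p under 0.05 in limma's two-sided moderated test was called. Each change is 1 group mean minus another on the log2 scale, and ± is the standard error unless SD is written.

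The histone genes and the accompanying lists were chosen with earlier results of these data known. Values per array are given for up to 8 called histone genes per comparison whose higher group mean reached 5, and for the variants; up to 4 genes of each accompanying list, those with the smallest p, are named, with NPAT, SLBP, CASP8AP2 and ASF1B in every case and CENPA once. The H1-1, H3C3, H2AC8, H2AC15, H2BC12 and H1-2 values and the shared probe sets were singled out after they were seen.

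Alternatives were averaging the probe sets of each gene, a filter at 6 or none, repeated quantile normalization, median centring, a trended and robust empirical Bayes step, a replicate block, the batch term, fits to the compared lines alone and leaving out each array. Testing every probe set was added after seeing the data. Same-numbered replicates did not deviate together in all pairs of any comparison, so the numbers were not used to pair arrays.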

Additional observations from a re-analysis of the deposited data

Results flagged for a closer look

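Of the 36 histone genes tested, 3 had 1 array of BT20 at 0 min far from the other 3, judged by the gap to the nearest array over the range of the group. The ratio was 0.8355 for H2AC15 and 0.8482 for H2AC6, both with replicate 4 farthest, and 0.8422 for H2AC17, with replicate 1 farthest. Chance gives such a gap in about 1 in 20 groups.

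The 24 h change was larger in BT20 than in MDA-MB-453 by the test of the difference for H2BC17 (2.51), H2AC6 (1.88), H2AC25 (1.76), H2BC21 (1.52), H3C8 (1.29), MACROH2A2 (1.28), H3C6 (1.15), H2AJ (1.14), H2BC5 (1.13) and H2BC4 (1.03). For H2AJ the call was lost without BT20 24 h replicate 1 (adjusted p = 0.0636) or 2 (0.0618), MDA-MB-453 24 h replicate 1 (0.0552) or 3 (0.0645), or MDA-MB-453 0 min replicate 3 (0.0726). The other 9 kept their calls without any 1 array.

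The 24 h change was larger in BT20 than in MCF for H2AC6 (1.63), H2BC21 (1.33), H2AC25 (1.25), MACROH2A2 (1.23), H3C6 (1.11), H2AJ (1.00), H2BC4 (0.87) and H2BC5 (0.74), and smaller for H4C5 (-0.78). H2AJ lost its call without BT20 24 h replicate 1 (adjusted p = 0.106) or 2 (0.107), BT20 0 min replicate 2 (0.0541), 3 (0.0652) or 4 (0.0689), MCF 24 h replicate 1 (0.0634) or 2 (0.127), or MCF 0 min replicate 2 (0.121) or 3 (0.1). H2BC4 lost it without BT20 24 h replicate 2 (0.0886) or 3 (0.0747), MCF 24 h replicate 1 (0.0691) or 3 (0.073), or MCF 0 min replicate 3 (0.0822). H4C5 lost it without BT20 0 min replicate 3 (0.0518), BT20 24 h replicate 2 (0.0913), MCF 24 h replicate 1 (0.0548) or 2 (0.0557), or MCF 0 min replicate 1 (0.0641) or 3 (0.0658).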

How the results depend on the processing

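Of 43 single-gene results, 26 kept their direction and call under every alternative run, and none changed direction. The 12 genes called in BT20 at 24 h became 13 without a filter, 9 with the filter at 6, and 11 to 12 without any 1 array. The fit with a replicate block, given because the labels number the replicates, left that count at 12. The 6 h count of 9 dropped to 1 with the batch term. The MDA-MB-453 count of 1 was 2 with the replicate block and 2 in the lines alone. The MCF count of 2 was 1 with the filter at 6, 6 with the replicate block, 4 with the batch term, 0 in the line alone and 1 to 5 without 1 array. Between the MDA-MB-453 and MCF changes 0 histone genes differed, 2 with the replicate block, 2 with the batch term and 0 to 3 without 1 array. These counts are not set beside the share of all genes called under each setting. They describe only how far the calls depend on the processing. The median change of replication-dependent genes without the filter was 0.0534 at 6 h and 0.13 at 24 h in BT20, -0.10 in MDA-MB-453 and 0.21 in MCF. It was 0.17 with repeated quantile normalization in BT20 at 24 h and -0.0653 with the filter at 6 in MDA-MB-453. Without 1 array it ran from 0.0514 to 0.189 in BT20 at 30 min, from 0.18 to 0.32 at 24 h and from -0.286 to -0.11 in MDA-MB-453, and the variants' median in MDA-MB-453 from -0.0693 to 0.0079. Averaging a gene's probe sets gave variants a median of 0.25 at 6 h and 0.14 at 24 h in BT20. The cause of these shifts was not tested. Of the differences from MCF at 24 h, those of H2AC25 (0.99) and H3C6 (0.31) lost their call with the mean of probe sets, and those of H2AJ and H2BC4 with several settings. At most 4 arrays a group, values below 4 and near-identical gene copies limit what single histone genes can show.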

Other observations

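H3C3, an H3 gene, varied more between replicates than between groups in both lines where it was high. It had 9.73, 11.13 and 6.59 in MCF at 24 h, against 4.74, 11.07 and 9.72 at 0 min, and 8.60, 9.09 and 6.00 in MDA-MB-453 at 24 h, against 7.97, 7.99 and 9.77 at 0 min. In BT20 all its values lay between 1.83 and 2.17.

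A probe set annotated to H2AC18 and H2AC19 was low on some of the same arrays. It had 11.38, 10.90 and 10.55 in MCF at 24 h, against 7.77, 11.49 and 11.67 at 0 min, and 10.18, 10.67 and 9.13 in MDA-MB-453 at 24 h, against 10.48, 10.48 and 10.98 at 0 min. Another probe set for the same 2 genes had 12.11, 11.38 and 12.47 in MCF at 0 min, so its lowest array was a different one. The remaining set for these genes had 10.3, 11.27 and 11.99 there, with replicate 1 lowest, as in the first set. In BT20 the first of these sets had 9.38, 9.79 and 9.46 at 6 h, against 10.63, 10.59, 10.63 and 9.60 at 0 min, with replicate 4 beside the 6 h arrays.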
